A study of Homo sapiens with 4 samples.

Results

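The response elements (REs) described here are the p53 binding sites that carried no biological function in the list of WT p53 sites the study made available. They were taken as the listed REs whose function was N/A, apart from 1 at PVT1, which was left out. This gave 237 of 1356 listed REs at 223 genes, and the 1118 REs with a listed function served for comparison. Many of the genes were long non-coding RNAs, antisense transcripts, pseudogenes or genes known only by a placeholder name.

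Binding of p53 was measured by ChIP-seq (chromatin immunoprecipitation followed by sequencing, with an antibody to p53) in H1299, a human lung cancer line that has no p53 of its own. The cells stably expressed the Tet repressor, so that tetracycline (Tet) released the expression of an introduced p53. This was either WT p53 or the K120R mutant, with arginine in the place of Lys120. The 4 groups were WT p53 without Tet, WT p53 with Tet for 24 h, K120R p53 without Tet and K120R p53 with Tet for 24 h. Each group had 1 library, so no spread between replicates could be measured and no p-value was computed. In this model the amount of p53 depends on the introduced construct, and differences in p53 level and in binding cannot be told apart. The ChIP libraries held 33059650 (WT untreated), 33531162 (WT Tet), 34151544 (K120R untreated) and 34857204 (K120R Tet) mapped tags, and their lists held 488, 4326, 12 and 2023 peaks.

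p53 is a transcription factor that binds DNA as a tetramer and activates genes of cell cycle arrest, DNA repair and cell death. Its RE is a pair of decamers, each with a CWWG core flanked by purines on the left and pyrimidines on the right (W is A or T). Lys120 reaches the flanking bases from the major groove. Many p53 sites lie far from promoters, and p53 also controls non-coding RNAs, for many of which no function has been assigned.

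The sequences below are those of the RE list, 20 bp long, 5′ to 3′, with positions counted from 1 at the left end and capitals at positions 3, 8, 13 and 18. These are the bps directly next to the CWWG cores, called the 4 flanking positions below. The first set is shown because these REs had the largest fold enrichments in the WT Tet list or in the K120R Tet list, apart from the first RE of STARD4-AS1, which stands beside the second of that gene.
LOC100131347: agAcatgCctgaAcatgCcc
STARD4-AS1 (first RE): taAcatgTccaaAcaggAtc
STARD4-AS1 (second RE): ggGcatgTtctgAcatgTct
C3orf79: tgAcatgCcctgAcatgCct
FAM71D: ggGcatgTctagActtgCct
SOWAHB: ggGcatgTcactAcatgTtg
MAMDC2: ggGcatgTtcagAcacaTcc
LINC00474: ggAcatgTctgtGcatgCct
GTDC1: tgAcatgTcatgAcatgTgc

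The second set is shown because these REs had the largest WT Tet fold enrichments among those over which no K120R peak was called.
MED4-AS1 (first RE): agAcaagCcctgGgcagGtt
PABPC1P2: ggGcatgTctggGcaagTca
DENND2D: ggGcatgTctggGcaagCca
ANKEF1: agGcatgTctagGcatgTtt
ANKRD18B: tgGcatgTccagGcaagCcc

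The third set holds REs of genes known from the p53 field or from their role, both REs of TP53TG1 included, and the second RE of MED4-AS1.
PTCHD4: agGcttgCccagActtgCcc
LINC-ROR: gaAcatgCttgtAcatgTtt
TP53TG1 (first RE): ggGcttgTctggGcaagTca
TP53TG1 (second RE): taAcatgTcatgAcaggCcc
DLEU7-AS1 (first RE): ggAcatgCccggAcaagCct
DLEU7-AS1 (second RE): agActtgCctggGcttgTtc
TYMSOS: ggTcaagCccagGcagcTct
FAM46A: agAcatgTccagActtgTag
CAHM: ggAcatgTttgtAcatgCca
MED4-AS1 (second RE): ggGcatgCccagAcaagCcc

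The last set shows the extremes of the capital positions. LINC00838 and TEX37 matched the consensus of 2 decamers (3 purines, CWWG and 3 pyrimidines in each) without a mismatch and had 0 and 4 G/C bps there, and YY1P2 differed from PABPC1P2 at 1 position.
LINC00838: ggAcatgTttggActtgTtc
TEX37: agGcatgCctagGcatgCct
YY1P2: ggGcatgTctggCcaagTca

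After Tet, a WT peak covered 233 of the 237 REs without function (98.3%, exact 95% interval 95.7 to 99.5), against 98.4% of all listed REs. This share describes how the list was made, since it was built from WT sites. The 4 without a WT Tet peak were at TSPAN9, which encodes a tetraspanin, at FAM110B, at STAU2-AS1 and at LOC284998, and none of them had a peak in any other library either. Intervals of shares are Clopper-Pearson and, like those made from them, cover counting error only. Where no peak is reported, weaker binding may have gone uncalled with these read numbers.

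K120R p53 after Tet had a peak at 88 of the 233 REs without function that WT p53 covered (37.8%, interval 31.5 to 44.3), beside 40.6% of all listed REs with a WT Tet peak. Among REs with a function it was 453 of 1100 (41.2%, interval 38.3 to 44.2). The difference was -3.41 percentage points, and the interval made from those of the 2 shares ran from -10.3 to 3.77, so the groups did not differ beyond counting error. The share at microRNA genes, the REs listed under posttranscriptional gene silencing, was 16 of 51 (31.4%, interval 19.1 to 45.9). At this depth, no difference in how often K120R p53 was found could thus be seen between REs without and with a function.

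In untreated cells, 62 of the 233 had a WT peak (26.6%, interval 21.1 to 32.8), beside 23.8% of all listed REs with a WT Tet peak and 256 of 1100 (23.3%, interval 20.8 to 25.9) of those with a function. At a -log10 q of at least 10 the share of REs without function was 11.0% (25 of 227). K120R p53 without Tet had a peak at 0 of the 233, beside 0.0750% of all listed REs, which was 1 RE with a function. The intervals of the 2 groups overlapped, for WT p53 without Tet as for K120R p53 with Tet.

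The fragment length that the peak caller estimated was 170 bp for the WT Tet library and 64 to 68 bp for the others, so fold enrichments (the pileup of fragments at the summit over the local background) are not on 1 scale between lists. They were compared within a list. The median WT Tet fold enrichment was 14.6 (quartiles 9.87 and 23.4) at REs without function and 13.5 (quartiles 9.16 and 21.6) at those with one. In the K120R Tet list the medians were 8.32 (quartiles 6.08 and 11.1) and 8.51 (quartiles 6.42 and 12.5). Their distributions overlapped over nearly their whole range in both lists.

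The largest WT fold enrichment of all 1356 listed REs, and of all 4326 WT Tet peaks, lay at an RE without function. This was LOC100131347 (chr17:37203119-37203138, plus strand, GRCh37/hg19 as for all positions), in an intron of the annotated pseudogene LRRC37A11P. Its fold enrichment was 22.4 in untreated WT cells, 90.7 after Tet and 24.2 with K120R p53 after Tet. Of the 10 REs with the largest WT Tet fold enrichment 3 had no function (30.0%), of the first 50 there were 8 (16%) and of the first 100 there were 19 (19.0%), beside 17.5% of all REs with a WT Tet peak.

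STARD4-AS1, a transcript antisense to the sterol transfer protein gene STARD4, had 2 REs, and it was the only gene without function with K120R peaks at both. The second RE (chr5:110830480-110830499, minus strand) lay in the UTR of CAMK4, a calcium/calmodulin-dependent kinase gene. It had fold enrichments of 30.9 in untreated WT cells, 74.1 after Tet and 30.3 with K120R p53, the largest K120R value among REs without function and the second largest of that list. The first (chr5:110807319-110807338, minus strand), in an intron of CAMK4, had 20.7 after Tet and 7.50 with K120R p53, and no peak in untreated cells.

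SOWAHB (chr4:77703244-77703263, plus strand) was a similar case. Its RE lay in the UTR of SHROOM3, an actin-binding protein of epithelial cell shape, with 18.7 in untreated WT cells, 65.2 after Tet and 24.8 with K120R p53. MAMDC2 (chr9:72591383-72591402, plus strand) had 13.5, 52.8 and 28.4 in the same order, in intergenic DNA 67371 bp from the start of MAMDC2. LINC00474 (chr9:118706580-118706599, minus strand) had 11.1, 47.8 and 27.1, in intergenic DNA 209480 bp from the start of PAPPA, a metalloproteinase gene. In both Tet lists these 3 REs stood at the 98.9th percentile or above. In the untreated WT list SOWAHB stood at the 91.8th, MAMDC2 at the 84.2nd and LINC00474 at the 75.6th percentile.

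GTDC1 (chr2:144860149-144860168, plus strand), in an intron of this glycosyltransferase-like gene, was high after Tet but had no peak in untreated cells. Its fold enrichment was 37.0 with WT p53 and 28.1 with K120R p53, which was larger than 97.3% and 99.8% of the peaks in the 2 lists or equal to them. It had 0 G/C bps at the 4 positions and 4 mismatches to the consensus, none of them in a core.

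C3orf79 and FAM71D had WT values among the highest of the list, without K120R values of that kind. C3orf79 (chr3:153332586-153332605, minus strand, in an intron of LINC02006) had 17.7 in untreated WT cells, 68.4 after Tet and 8.12 with K120R p53. FAM71D (chr14:67399514-67399533, minus strand, in a non-coding exon within GPHN, the gene of the scaffold protein gephyrin) had 19.6, 66.2 and 10.3. Both K120R values lay between the quartiles of the REs without function that had a K120R peak (6.08 and 11.1).

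**Figure D1:**
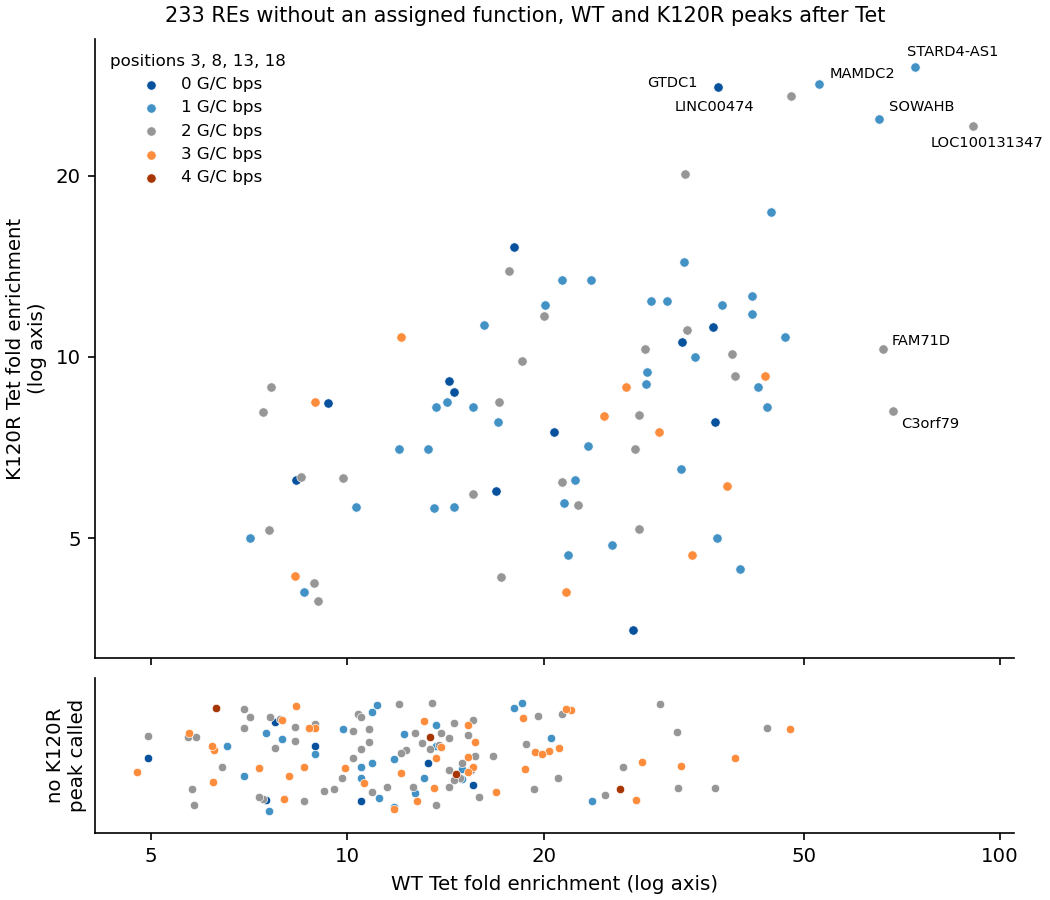
WT Tet fold enrichment (horizontal, log axis) of the 233 REs without function that had a WT Tet peak, against K120R Tet fold enrichment (vertical, log axis) for the 88 with a K120R peak, with the other 145 in the strip below, spread vertically at random. Each point is 1 RE, coloured by its G/C bps at the 4 flanking positions. The REs without a K120R peak had no WT value above 47.7.

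The REs with a K120R peak were the more enriched ones in the WT Tet list. Their median WT fold enrichment was 23.5 (quartiles 14.6 and 36.3), against 12.3 (quartiles 8.60 and 15.6) for the 145 without, a ratio of 1.91 (interval 1.59 to 2.42, from binomial limits of the medians). Above the median WT fold enrichment 66 of 116 REs had a K120R peak (56.9%, interval 47.4 to 66.1), and at or below it 22 of 117 (18.8%, interval 12.2 to 27.1). For all listed REs, split at their own median, these shares were 55.1% and 26.0%. REs with a function showed the same order, with 19.7 against 11.2. Untreated WT peaks went along with K120R peaks: 41 of the 62 REs with an untreated WT peak had a K120R Tet peak (66.1%, interval 53 to 77.7), against 47 of the 171 without (27.5%, interval 20.9 to 34.8). Over all listed REs the shares were 65.4% and 32.8%, so REs without function were close to the whole list in this. The 62 also had the larger WT Tet values, with a median of 30.5 against 12.3. Where the WT Tet peak overlapped no untreated WT peak, the ratio of WT medians with over without a K120R peak was 1.54 (interval 1.16 to 1.96). How far untreated peaks went along with K120R peaks at equal WT Tet values was not tested.

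Some strong WT sites nevertheless had no K120R peak. The strongest was the first RE of MED4-AS1 (chr13:48640870-48640889, minus strand), antisense to and within an intron of MED4, a subunit gene of the Mediator complex. It had 9.42 in untreated WT cells and 47.7 after Tet. PABPC1P2 (chr2:147454930-147454949, plus strand), a pseudogene of a poly(A)-binding protein, had 11.8 and 43.9. DENND2D (chr1:111757261-111757280, plus strand), with its RE in an intron of the neighbouring gene CHI3L2, had 6.65 and 39.2. ANKEF1 (chr20:10100162-10100181, plus strand), in an intron of SNAP25-AS1, had 5.28 and 36.6, and ANKRD18B (chr9:33560397-33560416, plus strand), in its own intron, had 4.49 and 32.5. All 5 had a WT peak in untreated cells at the limit of the deposited list, but that of ANKRD18B (-log10 q of 1.45) was lost at a limit of 5 and those of ANKEF1 and DENND2D at 10. Each had 2 or 3 G/C bps at the flanking positions.

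G/C bps there went along with the lack of a K120R peak. By the number of such bps, a K120R Tet peak was found for 0 at 12 of 19 REs (63.2%, interval 38.4 to 83.7), for 1 at 39 of 66 (59.1%, interval 46.3 to 71.0), for 2 at 27 of 93 (29.0%, interval 20.1 to 39.4), for 3 at 10 of 51 (19.6%, interval 9.82 to 33.1) and for 4 at 0 of 4 (upper limit 60.2%). In joined classes, K120R peaks covered 51 of 85 REs (60.0%, interval 48.8 to 70.5) for 0 or 1 and 10 of 55 for 3 or 4 (18.2%, interval 9.08 to 30.9). The difference was 41.8 percentage points (interval 24.9 to 55.7). For REs with a function the same classes gave 264 of 418 (63.2%) and 52 of 297 (17.5%).

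**Figure D2:**
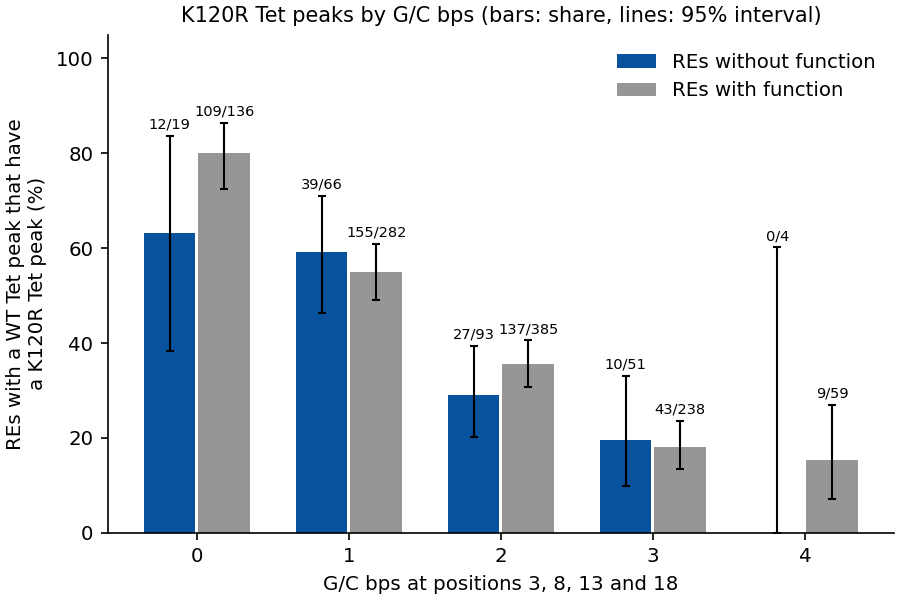
Share of REs with a WT Tet peak that also had a K120R Tet peak (vertical, %), by how many of the 4 flanking positions held G or C (horizontal), for REs without function (blue) and with function (grey). Bars are shares, lines exact 95% intervals, and the counts stand above. Both groups go down from 0 to 4 G/C bps, from 63.2% to 0% and from 80.1% to 15.3%.

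The order by G/C number was seen on both sides of the median WT fold enrichment. Above the median, K120R peaks covered 39 of 46 REs in the class of 0 or 1 (84.8%, interval 71.1 to 93.7), 20 of 42 with 2 (47.6%, interval 32.0 to 63.6) and 7 of 28 with 3 or 4 (25.0%, interval 10.7 to 44.9). At or below it the counts were 12 of 39 (30.8%, interval 17.0 to 47.6), 7 of 51 (13.7%, interval 5.70 to 26.3) and 3 of 27 (11.1%, interval 2.35 to 29.2). The 3 intervals at or below the median overlapped, as did those for 2 and for 3 or 4 above it. Over all listed REs, split at their own median, the shares were 81.3%, 46.4% and 26.4% above and 42.9%, 21.1% and 10.4% at or below it, in the same order. WT fold enrichment itself hardly moved with the G/C number, with medians of 15.6, 13.8 and 14.7 in the 3 classes.

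The 4 positions were also looked at 1 by 1, and differences between positions were not tested. At position 3, G or C stood in 40.9% (interval 30.5 to 51.9) of REs with a K120R peak and 61.4% (interval 52.9 to 69.3) of those without. At position 8 it was 27.3% (interval 18.3 to 37.8) and 46.2% (interval 37.9 to 54.7), and at position 13 it was 27.3% (interval 18.3 to 37.8) and 53.8% (interval 45.3 to 62.1). At position 18 the shares were 44.3% (interval 33.7 to 55.3) and 44.1% (interval 35.9 to 52.6), so no difference was seen there. Positions follow the strand as listed. Read on the other strand, position 18 would be position 3 and position 13 would be position 8. The left and right decamers of the list were not alike. Position 7, in the left core, held G or C in 100% of REs with and without a K120R peak. Position 17, in the right core, did so in 87.5% and 89.7%. The level shares at position 18 thus hold for the listed strand, and the other was not tested. REs with a function had 36.9% (interval 32.4 to 41.5) and 52.6% (interval 48.6 to 56.5) at position 18. Whether position 18 differs between the groups of REs was not tested. Of the other 16 positions, number 12 was the only one at which the intervals lay apart for REs without function. G or C stood there in 50% (interval 39.1 to 60.9) with a K120R peak and 70.3% (interval 62.2 to 77.6) without, and in 60.9% and 69.9% of REs with a function. A lower G/C share at REs with a K120R peak was thus not confined to the flanking positions. Over the 4 positions together, G/C was 34.9% with and 51.4% without a K120R peak, a difference of 16.4 percentage points (interval 9.76 to 22.9). For this the 4 positions of an RE were counted separately, so the interval treats them as independent.

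**Figure D3:**
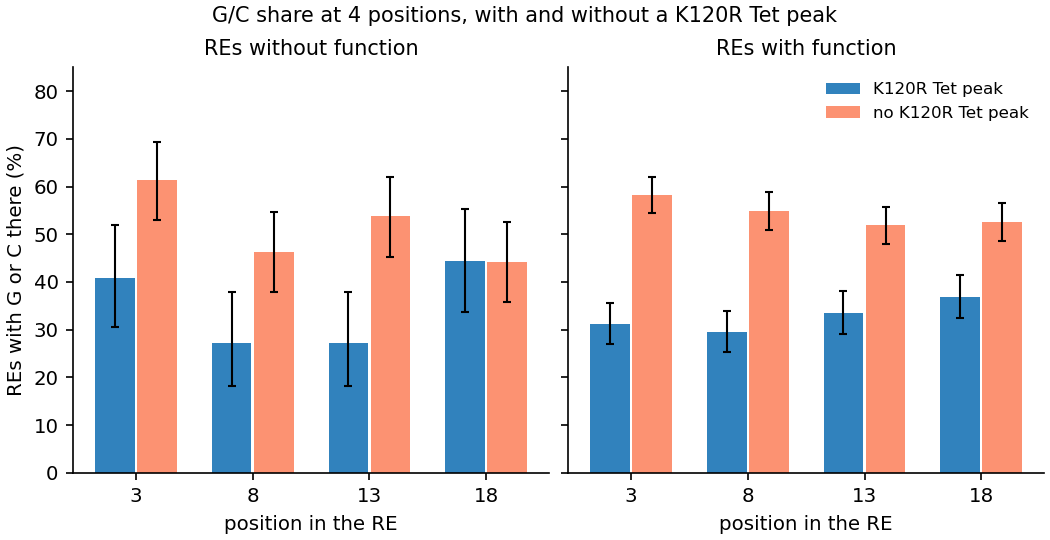
Share of REs with G or C (vertical, %) at each of the 4 positions (horizontal), for REs with (blue) and without (red) a K120R Tet peak, in REs without function (left) and with function (right). Lines are exact 95% intervals. On the left the bars differ at positions 3, 8 and 13 and are level at position 18, at 44.3% and 44.1%. Positions are counted on the strand as listed.

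The REs at the ends of the G/C scale gave the exceptions. With 0 G/C bps, 7 REs had no K120R peak, and all of them had a WT Tet fold enrichment of at most 15.6. These REs, picked for this after their values were seen, were at LOC643802 (15.6), SPATA12 (13.3), CELF2-AS2 (10.5), CYYR1 (8.92), LOC100287010 (7.76), SLC9A9-AS1 (7.52) and TIGD2 (4.96). WT values below 15.6, down to 8.36, also stood at some REs with 0 G/C bps and a K120R peak. With 3 G/C bps, the 10 REs with a K120R peak included the pseudogene KRT18P55 (WT Tet 43.6, K120R 9.28), TMEM260 (38.2 and 6.11), ANKRD19P (33.7 and 4.69) and VWA8 (12.1 and 10.8), also chosen afterwards. The K120R peaks of TMEM260 and ANKRD19P were lost at a -log10 q of at least 5, and the summit of that of VWA8 lay 164 bp from the RE centre. With 4 G/C bps, TEX37 (chr2:88838001-88838020, plus strand) had no K120R peak although its WT values were 7.76 untreated and 26.2 after Tet. LINC00838 (chr10:33993560-33993579, minus strand), with 0 G/C bps and also without a mismatch, had 7.29, 14.6 and, with K120R p53, 8.76. At equal match to the consensus, the RE with the lower WT value was thus the one with a K120R peak.

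The number of mismatches to the consensus did not order the K120R peaks in the way of the G/C number. A K120R peak was found at 11 of 35 REs with 0 mismatches (31.4%, interval 16.9 to 49.3), 45 of 128 with 1 or 2 (35.2%, interval 26.9 to 44.1) and 32 of 70 with 3 or more (45.7%, interval 33.7 to 58.1), and the intervals overlapped. Over all listed REs the shares were 35.3%, 41.7% and 40.5%, without a steady rise. WT Tet medians were 15.0, 14.8 and 13.4, and 16.2, 14.6 and 11.2 at REs with a function. REs without a mismatch made up 35 of 237 (14.8%, interval 10.5 to 19.9) here and 118 of 1118 (10.6%, interval 8.81 to 12.5) among REs with a function.

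The REs were also grouped by the type of core. REs in which both cores read CATG were 83 of 237 (35.0%, interval 29.0 to 41.5), against 332 of 1118 (29.7%, interval 27.0 to 32.5) with a function. Their median WT Tet fold enrichment was 17.4, against 13.4 with 1 CATG core and 12.1 with none. A K120R peak was found at 43 of 82 with 2 CATG cores (52.4%, interval 41.1 to 63.6), 33 of 110 with 1 (30.0%, interval 21.6 to 39.5) and 12 of 41 with none (29.3%, interval 16.1 to 45.5). The intervals for 2 cores and for none overlapped, while those for 2 cores and for 1 lay apart. An untreated WT peak was called at 31 of 82 (37.8%, interval 27.3 to 49.2), 25 of 110 (22.7%, interval 15.3 to 31.7) and 6 of 41 (14.6%, interval 5.57 to 29.2), near the 33.5%, 21.2% and 15.5% of all listed REs. With 0 or 1 G/C bps at the 4 positions the K120R counts were 27 of 40, 19 of 31 and 5 of 14, and with 3 or 4 they were 3 of 10, 4 of 33 and 3 of 12. In REs with a function K120R peaks were found at 50.3%, 34.1% and 44.8%, so there the REs without a CATG core did not have the fewest. With 0 or 1 G/C bps and no CATG core they had 57 of 86 (66.3%, interval 55.3 to 76.1), so the low 5 of 14 was not seen in that group.

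Genes known from the p53 field gave different pictures. PTCHD4, which encodes a patched-domain protein and is a known p53 target, had its RE (chr6:48078934-48078953, minus strand) 10 bp from its annotated start, the closest to a protein-coding start of all 237. Its WT fold enrichment was 7.29 in untreated cells and 28.3 after Tet, and it had 3 G/C bps and 0 mismatches. No K120R peak overlapped it, but a K120R Tet peak of 90 bp ended 7 bp from the RE, with a fold enrichment of 8.25 and its summit 58.5 bp from the RE centre. K120R p53 was therefore called beside this RE but not over it. The same was the case for the RE of LOC256021, directly next to a K120R peak of 84 bp (fold enrichment 8.25), and the first RE of CCDC60, 3 bp from one of 71 bp (5.03). With these 3 counted as bound, the share with a K120R peak was 91 of 233 (39.1%, interval 32.8 to 45.6).

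TP53TG1, a long non-coding RNA named as a p53 target, had 2 REs, both in its introns and neither with a peak in untreated cells. The first (chr7:86960440-86960459, plus strand) had 14.3 after Tet and no K120R peak, and the second (chr7:86973982-86974001, minus strand) had 13.6 and a K120R value of 5.61. The second lay 988 bp from the start of CROT, a carnitine acyltransferase gene of peroxisomes, and had 1 G/C bp at the 4 positions against 2 in the first. The WT fold enrichments were close, but the WT Tet pileup was 98.8 at the first and 47.5 at the second. The K120R peak of the second had a -log10 q of 4.18 and was lost when a -log10 q of at least 5 was asked for.

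LINC-ROR, a long non-coding RNA of pluripotent cells known to act on p53 translation, had 1 of the larger K120R peaks. Its RE (chr18:54564539-54564558, minus strand), in an intron of WDR7, had 21.3 with WT p53 and 13.4 with K120R p53 after Tet, without a peak in untreated cells. FAM46A, which encodes the non-canonical poly(A) polymerase now named TENT5A, had its RE (chr6:82469757-82469776, minus strand) 7275 bp from its start, with 36.6 and 7.81. CAHM (chr6:163808541-163808560, minus strand), a long non-coding RNA near QKI, had 17.0 and 7.81. All 3 had 0 or 1 G/C bps at the 4 positions.

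TYMSOS, the transcript opposite the thymidylate synthase gene TYMS, had WT peaks with and without Tet. Its RE (chr18:658282-658301, minus strand), in a non-coding exon 638 bp from the start of TYMS, had 9.07 untreated and 6.43 after Tet, without a K120R peak, and as these lists are not on 1 scale, no change between them was read from this. NBPF3 (10.2), SEL1L3 (15.5), FNDC1 (11.8) and ATXN8OS (11.1), the antisense RNA linked to a spinocerebellar ataxia, had a WT Tet peak only.

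At 14 genes 2 REs without function were listed, and in all 14 both REs had a WT Tet peak, each a peak of its own. K120R peaks were found at both REs of 1 gene (STARD4-AS1), at 1 of the 2 REs in 6 genes and at neither in 7. This was 8 of 28 REs (28.6%, interval 13.2 to 48.7), beside 40.6% of all listed REs with a WT Tet peak and 73 of 160 (45.6%, interval 37.7 to 53.7) at the 80 genes with 2 such REs that had a function. There the counts were 16 genes for both, 41 for 1 and 23 for neither. At a -log10 q of at least 10, the counts for the 14 genes without function were 1, 1 and 12. The REs of DLEU7-AS1, from the region deleted in lymphocytic leukaemia, both matched the consensus and both had 2 G/C bps. The first (chr13:51103656-51103675, minus strand) had 10.1 untreated, 27.6 after Tet and 7.04 with K120R p53, whereas the second (chr13:51305750-51305769, minus strand) had 10.4 after Tet alone. At SCHIP1 the RE with 3 G/C bps was the one with a K120R peak (WT 24.7, K120R 7.98), and the one with 1 had none (WT 6.55). At FLJ42969 the order was the opposite, as the RE with 0 G/C bps had a K120R peak (WT 18, K120R 15.2) and the one with 4 did not (WT 6.29).

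MED4-AS1 had REs 5707 bp apart with 3 G/C bps each, and there the weaker WT site was the one with a K120R peak. The second RE (chr13:48646597-48646616, minus strand), with 0 mismatches, had 6.52 untreated, 30.0 after Tet and 7.51 with K120R p53, while the first, with 4 mismatches, had the 47.7 given above and no K120R peak. The K120R peak of the second had a -log10 q of 8.05 and was lost at a limit of 10. LINC00662 also had 1 K120R peak (5.01, WT 7.09), at the RE with 1 G/C bp and not at that with 3 (WT 6.26). That peak had a -log10 q of 4.27 and its summit 134 bp from the RE centre. It was lost at a -log10 q of at least 5 and with a summit within 100 bp. The 7 genes without any K120R peak over their REs were CCDC149, CCDC60, CYYR1, FLJ35946, LOC284385, LOC730159 and SLC9A9-AS1, with WT values from 7.52 to 19.3. The stronger REs of STARD4-AS1, MED4-AS1, DLEU7-AS1 and SCHIP1 lay above this range, those of FLJ42969 and TP53TG1 within it and that of LINC00662 below it (7.09).

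REs without function had a larger median distance to the nearest protein-coding start than REs with a function. It was 73784 bp (quartiles 25708 and 209480), against 38152 bp (quartiles 12645 and 122618). This was not particular to REs without function, since REs of microRNA genes had a median of 92904 bp (quartiles 54909 and 238722). Inside a protein-coding gene lay 88 of 237 REs without function (37.1%, interval 31.0 to 43.6) and 601 of 1118 with one (53.8%, interval 50.8 to 56.7). Of the REs of microRNA genes it was 29 of 52 (55.8%, interval 41.3 to 69.5). Introns, those of non-coding genes included, held 128 REs without function (54.0%), intergenic DNA 87 (36.7%), non-coding exons 15 (6.33%), UTRs 5 and coding sequence 2. Of the 88 REs inside a protein-coding gene, 35 lay in the gene they were listed under and 53 in one of another name.

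These hosts included genes with well described roles, named here for their position and after their values were seen. MIR548F2 lay in an intron of ERBB4, a receptor tyrosine kinase (WT 41.7, K120R 12.6), LINC00476 in one of ERCC6L2, a DNA repair helicase (46.8 and 10.8), and PLEKHG7 in one of EEA1, an early endosome tether (41.7 and 11.8). SMEK1 lay in the coding sequence of its own gene, now PPP4R3A, a regulatory subunit of protein phosphatase 4 (38.9 and 10.1). Of the 5 REs in UTRs, 4 had a K120R peak (80.0%, interval 28.4 to 99.5), beside 20 of 37 UTR REs of the whole list (54.1%, interval 36.9 to 70.5) with overlapping intervals. These were STARD4-AS1 and SOWAHB, given above, and FAM200B in the UTR of FBXL5 (WT 8.90, K120R 4.22) and CACNA1C-AS1 in that of CACNA1C (10.3 and 5.63), whereas LOC284648 in the UTR of RGS8 had WT 7.88 only. The K120R peak of FAM200B had a -log10 q of 2.90, and 3 of the 5 were left at a limit of 5.

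Within 1000 bp of a protein-coding start lay 7 of the 237 (2.95%, interval 1.20 to 5.99), against 61 of 1118 (5.46%, interval 4.20 to 6.95). Beside PTCHD4, TYMSOS and the second RE of TP53TG1 these were TRAF3IP2-AS1, LOC284385, FAM200B and LOC286059. TRAF3IP2-AS1, 434 bp from the start of REV3L, the catalytic subunit gene of DNA polymerase zeta, had 18.7 untreated, 36.3 after Tet and 11.2 with K120R p53. LOC286059, in an intron of TNFRSF10B, a death receptor gene, and 399 bp from the start of that gene, had 6.45, 33.1 and 11.1. LOC284385, 810 bp from the start of ZNF561, had 19.3 after Tet only, and FAM200B, 181 bp from its start, had 6.74, 8.90 and 4.22. K120R peaks were thus found at 4 of these 7 REs (57.1%, interval 18.4 to 90.1), beside 40 of 67 that close to a start in the whole list (59.7%). At a -log10 q of at least 5 they were left at 2 of the 7, those of TRAF3IP2-AS1 and LOC286059.

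By gene type in RefSeq, 104 of the 237 REs were listed under a non-coding RNA (43.9%, interval 37.5 to 50.5), 89 under a protein-coding gene (37.6%), 26 under a pseudogene (11.0%) and 18 under a name that could not be matched. Among REs with a function 1044 of 1118 (93.4%) were listed under a protein-coding gene. K120R peaks were found at 42 of 102 REs of non-coding RNAs (41.2%, interval 31.5 to 51.4), 33 of 87 of protein-coding genes (37.9%, interval 27.7 to 49.0), 8 of 26 of pseudogenes (30.8%, interval 14.3 to 51.8) and 5 of 18 unmatched ones (27.8%, interval 9.69 to 53.5). Among REs with a function the shares were 23 of 62 (37.1%), 426 of 1027 (41.5%) and 3 of 10 (30.0%) for the first 3 types. Median WT Tet fold enrichments were 14.6, 15.5, 14.1 and 11.5. The intervals overlapped, so no gene type stood apart.

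The classes of gene names gave a wider range of K120R shares. LINC genes had a K120R peak at 11 of 19 REs (57.9%, interval 33.5 to 79.7), although their median WT fold enrichment of 10.9 was the lowest of the 6 classes. Antisense or intronic transcripts had one at 11 of 26 (42.3%, interval 23.4 to 63.1, median WT 16.5), family-numbered genes at 13 of 28 (46.4%, interval 27.5 to 66.1, 14.2), and names read as pseudogenes, 15 of 20 of them pseudogenes in RefSeq, at 9 of 20 (45.0%, interval 23.1 to 68.5, 14.1). The other 5 REs of that class were of protein-coding genes whose names end like those of pseudogenes. Of these, CEP250 (6.25), ARL6IP6 (8.43), CYP3A7-CYP3AP1 (4.69) and 1 RE of SCHIP1 (7.98) had K120R peaks, and the other RE of SCHIP1 had none. The 45.0% is thus no share of pseudogenes, which by RefSeq type was 30.8%. Other names had a K120R peak at 20 of 55 (36.4%, interval 23.8 to 50.4, 15.9) and placeholder names at 24 of 85 (28.2%, interval 19.0 to 39.0, 14.2). Placeholder names also had the largest mean number of G/C bps at the 4 positions, 2.02, against 1.46 for antisense or intronic transcripts and 1.63 for LINC genes. The intervals of the 6 classes overlapped, and these differences were not tested. The share of all listed REs, 40.6%, lay within the interval of every class but that of placeholder names, whose upper limit was 39.0%.

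**Figure D4:**
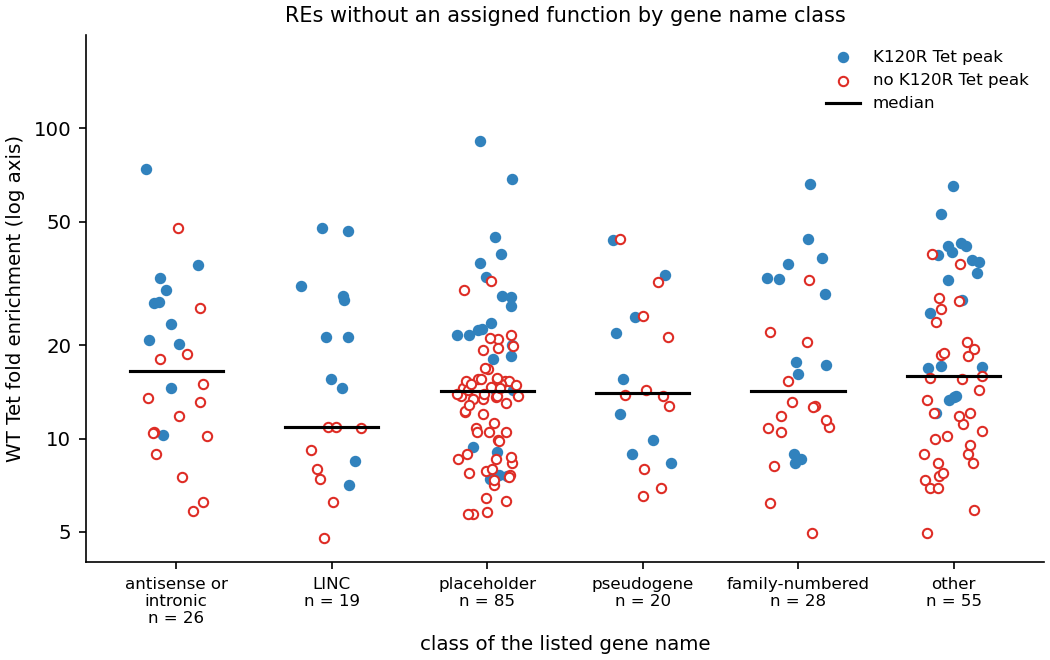
WT Tet fold enrichment (vertical, log axis) of the 233 REs without function that had a WT Tet peak, by the class of the listed gene name (horizontal, points spread at random within a class). Filled blue points had a K120R Tet peak, open red points did not, and the bar is the median. LINC genes have the lowest median, 10.9, and 11 of 19 of their REs are filled.

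Identical sequences offered a comparison in which the 20 bp were held constant. Of the 237 REs 35 (14.8%, interval 10.5 to 19.9) had a sequence that another listed RE shared on either strand, against 134 of 1118 (12.0%, interval 10.1 to 14.0) with a function. The 35 fell into 21 sets of 80 REs. In 12 of the 21 sets some REs had a K120R peak and others did not, in 7 none had one and in 2 all did. The same 20 bp were thus found with and without a K120R peak at different places in the genome. In most of the mixed sets the RE with the largest WT Tet fold enrichment had a K120R peak. The sets of PABPC1P2, LOC286189 and LOC338758 were the exceptions. Some K120R peaks in these sets, as at LINC00410, KDM4C and PHF14, were lost at the stricter q limits. How far the mixing followed WT values was not tested.

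The set of PABPC1P2 was shared by 11 REs, 5 of them without function, and their WT Tet fold enrichments ran from 10.9 to 43.9, a 4.04-fold range. From high to low, the 5 were PABPC1P2 (43.9), ARHGAP5-AS1 (26.4), LINC00410 (21.3), LOC440970 (14.6) and LINC00320 (10.9). Only LINC00410 of these had a K120R peak (6.20), as did RANBP3L (9.05, WT 22.6) among the 6 with a function, so that the strongest WT site of the set had none. The peak at LINC00410 had a -log10 q of 4.69 and was lost at a limit of 5. The first 3 of the 5 also had an untreated WT peak, with 11.8, 7.29 and 7.85.

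The largest set joined SEL1L3, ASB9P1 and CCT6P1 with 15 REs that had a function. WT Tet values ran from 10.0 to 50.9 with a median of 20.3, and SEL1L3 (15.5), ASB9P1 (24.8) and CCT6P1 (13.8) lay within this range. In this set 1 of 18 had a K120R peak, KDM4C, which was also the strongest WT site (50.9 and 7.74). Among pairs, LINC00474 (47.8 and 27.1) shared its sequence with SNORA28 (17.1 and 8.43), and the first RE of MED4-AS1 (47.7) shared its sequence with MS4A13 (19.4), neither with a K120R peak. CCDC30 (WT 20.4, no K120R peak) shared that of PHF14 (77.0 and 7.22), and LOC643401 (10.5, no K120R peak) that of C7orf10 (62.5 and 11.9). In these last 2 pairs the RE with a function had the larger WT value, by 3.78-fold and 5.97-fold. Of the 6 pairs of 1 RE without and 1 with a function, however, the larger WT value was on either side in 3. The RE without function was the stronger at CLRN3 (42.6 against 29.9), FLJ26850 (13.4 against 8.48) and LOC338758 (15.0 against 12.4). C7orf10 also had an RE of another sequence listed without a function (WT 5.73), so this gene stood in both groups.

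**Figure D5:**
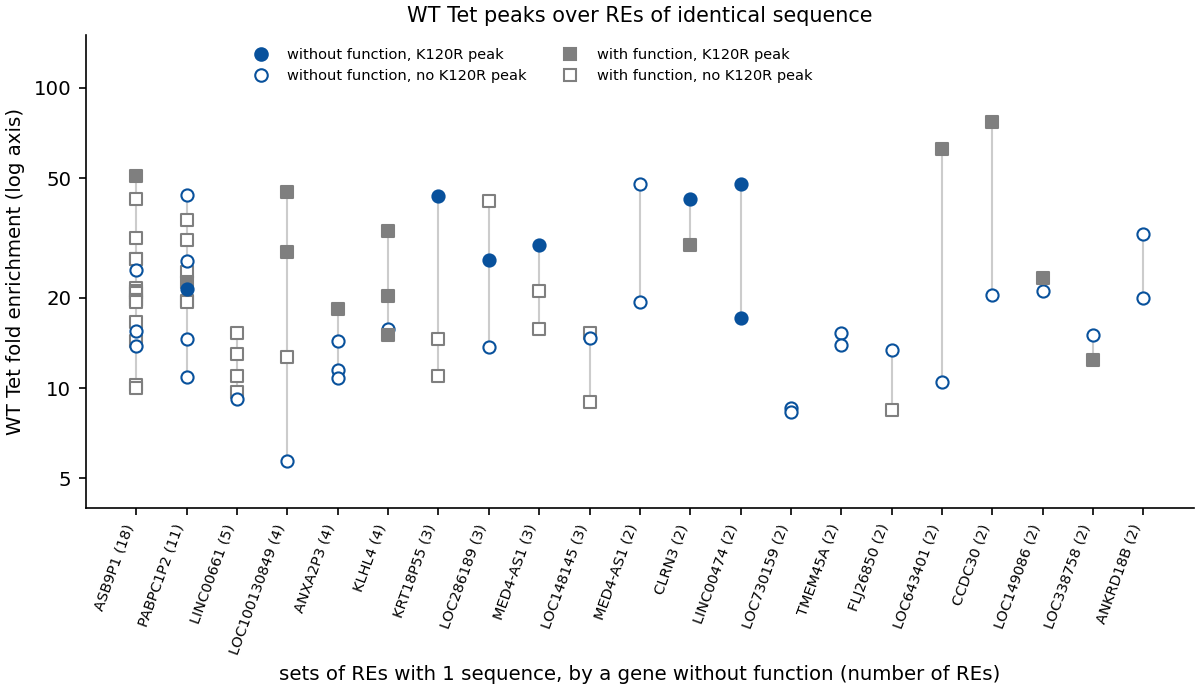
WT Tet fold enrichment (vertical, log axis) of REs that share 1 sequence, in 21 sets (horizontal), each named by its strongest RE without function, with the number of REs in brackets. Circles are REs without function and squares REs with one, filled where a K120R Tet peak was called. Within sets the values spread by up to 7.91-fold, and 12 sets hold both filled and open symbols.

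Near relatives of the PABPC1P2 sequence differed from it at 1 position. In the numbering of the printed sequence, DENND2D was T18C, YY1P2 G13C and the first RE of TP53TG1 A5T. Their WT Tet fold enrichments were 39.2, 6.95 and 14.3, and none had a K120R peak. YY1P2 (chr2:140622598-140622617, minus strand) thus lay below the range of the identical REs, DENND2D and TP53TG1 within it. The SEL1L3 set had 2 such relatives without function. HCG25, which differed at 1 flanking position, had a K120R peak (WT 39.9, K120R 4.45), and LINC00661, which differed outside these positions, had none (WT 9.21).

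Summits lay close to the REs in both lists. The median distance from the RE centre to the WT Tet summit was 11.5 bp (quartiles 6.50 and 22.5) at REs without function and 13 bp at those with one. For K120R Tet summits it was 23.0 bp (quartiles 8.50 and 45.0) and 24.5 bp. The larger distance in the K120R list went along with its shorter fragment length, and their relation was not tested.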

How the data were processed

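ChIP-seq of p53 in Tet-inducible H1299 cells was analysed from the deposited peak tables, with 1 library in each of the 4 groups, which were taken from the sample labels. The authors aligned unique 75-bp reads to GRCh37/hg19 by BWA-MEM. Their peak caller was MACS 2.1.1.20160309, run for every ChIP with the matching input (q cutoff 0.05, 1 tag per position). The deposited pileup is a signal height, the fragments over the summit after the larger of ChIP and input was scaled to the smaller. The deposited fold enrichment sets this pileup against the local background. The p-values and q-values of the authors' MACS run were deposited as -log10 p and -log10 q. Narrow-peak and summit files of the same peaks were not used.

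REs, their positions, sequences, genes and functions came from the study's list, which lacks a few of the study's REs, and its measured values were not used. Members and lists were chosen with earlier results of these data known. An RE had a peak when at least 1 bp overlapped. Sequences were compared with GRCh37, where 233 of 237 were found at their position, and placed in GENCODE release 44 lifted to GRCh37, while gene types came from RefSeq by name, with 219 of 237 matched. Shares carry exact Clopper-Pearson 95% intervals. Intervals of differences and ratios combine the limits of both sides, with order-statistic limits for medians. Input libraries held 41132992, 32480936, 33770179 and 32572015 tags (WT untreated, WT Tet, K120R untreated, K120R Tet).

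The named genes were the 8 REs without function with the largest WT Tet fold enrichment, the 5 with the largest K120R Tet fold enrichment, the 5 with the largest WT Tet fold enrichment and no K120R Tet peak, any with an untreated K120R peak, those without a WT Tet peak, genes with more than 1 RE, 12 genes known by name or role, and REs without a mismatch with G/C at 0 or 4 of positions 3, 8, 13 and 18 (at most 3 of each). Others are marked as chosen after their values were seen, and the sets of identical sequences were also formed then. Name classes followed the listed name: antisense or intronic (-AS or -IT), LINC, placeholder (LOC, FLJ, KIAA, UNQ, MGC, or a chromosome with orf), pseudogene (RefSeq type, or a name ending in P or P and digits), family-numbered (FAM, TMEM, CCDC, ANKRD, ZNF, LRR) and other, in this order. Python 3.11.15 with numpy 2.4.6, pandas 2.3.3, scipy 1.17.1 and matplotlib 3.10.9 was used, and the overlap and interval steps were tested on simulated data. Alternatives were a -log10 q of at least 5 or 10, a fold enrichment of at least 5, a summit within 100 bp of the RE centre, REs of exactly 20 bp without an insert, 1 RE per WT Tet peak, REs whose WT Tet peak overlapped no untreated WT peak, pileup for fold enrichment, and microRNA genes for comparison.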

Additional observations from a re-analysis of the deposited data

How the results depend on the processing

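No paired analysis was possible because each condition had 1 library. Of 43 alternative values, 36 stayed within the 95% interval of the reported one and 7 lay outside. The share of REs without function with a K120R Tet peak, 37.8%, became 29.6% with a -log10 q of at least 5, 22.0% with at least 10 and 27.4% where the WT Tet peak overlapped no untreated WT peak. The share with an untreated WT peak, 26.6%, became 21.0% and 11.0% at the same q limits. Fewer peaks pass stricter limits by construction. The ratio of median WT fold enrichment, 1.91, was 1.54 without REs whose WT Tet peak overlapped an untreated one, and ran up to 2.26 with pileup. The difference from REs with a function, -3.41 percentage points, had the other sign against microRNA genes alone, 6.40 (interval -9.41 to 20.3), where both intervals include 0, and the cause was not tested. The differences by G/C bps ran from 28.2 to 41.8 and from 15.4 to 17.2 percentage points. Of the REs given by name, the K120R peaks at LINC00662, TP53TG1, FAM200B, ANKRD19P, HCG25, TMEM260 and LINC00410 were lost at a -log10 q of at least 5. At 10, those at MED4-AS1, DLEU7-AS1, SCHIP1, LINC00838, CACNA1C-AS1, KDM4C, PHF14 and the RE listed under a number were lost too, as was the WT Tet peak at TIGD2. A fold enrichment of at least 5 removed the K120R peaks at FAM200B, ANKRD19P and HCG25 and the WT Tet peak at TIGD2. With a summit within 100 bp in place of overlap, K120R peaks were gained at PTCHD4, LOC256021 and the first RE of CCDC60 and lost at LINC00662, VWA8 and PHF14. Of the untreated WT peaks given by value, that of ANKRD18B was lost at a -log10 q of at least 5 and at a fold enrichment of at least 5. At a -log10 q of 10 those of ANKEF1, DENND2D, PTCHD4, LINC00838, TEX37, LINC00410, ARHGAP5-AS1, FAM200B, LOC286059 and the second RE of MED4-AS1 were lost too, and with the summit rule those of LINC00410, LINC00475 and the first RE of MED4-AS1. The genes with 2 REs and no K120R peak were 9 and 12 of 14 at the q limits and 7 with the summit rule, then with LINC00662 in the place of CCDC60. Weak K120R binding may lie below the limit of these lists at this depth.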

Other observations

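The list held 1 RE without function under a number in place of a gene name (chr4:165458129-165458148, minus strand). It lay in intergenic DNA, and the nearest protein-coding start was that of MARCHF1, a membrane-bound ubiquitin ligase, at 152936 bp. Its fold enrichment was 13.3 with WT p53 and 7.04 with K120R p53 after Tet, without a peak in untreated cells, and it had 1 G/C bp at positions 3, 8, 13 and 18.

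LINC00475 had the third largest untreated WT fold enrichment among the REs without function, 20.9, at the 94.5th percentile of that list, with 6 mismatches to the consensus. After Tet it had 28.7 with WT p53 and 9.00 with K120R p53. Only STARD4-AS1 (30.9) and LOC100131347 (22.4) had larger untreated values, and these 2 had larger WT Tet values as well (74.1 and 90.7).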
